A study of Mus musculus with 9 samples.

Results

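The RNAs described here are Malat1, Neat1, Snhg11, Pisd-ps3, Miat and Gas5, 6 of the 24378 gene rows in a table of molecule counts from 9 single cells of the mouse hypothalamic paraventricular nucleus. The 6 rows were chosen by name, with the molecules in every cell and their relation to the depth and the mitochondrial share of the cell already known from the same table. Those values are therefore given as descriptions, with no test. All 9 cells form 1 group: C57Bl6/N mice 21 to 28 days old, no treatment or genotype named, cells dissociated with papain and captured on a Fluidigm C1 chip, and all labelled secretagogin-positive. The cells are called cell 1 to cell 9 after their labels. The labels name no mouse of origin. The cells therefore count as 1 sample, no p-value was computed, and the printed intervals are exact 95% intervals that cover counting error only. Scgn, the gene of secretagogin, had 11 molecules in cell 3, 3 in cell 8, 1 each in cells 2, 5 and 9, and 0 in the 4 cells 1, 4, 6 and 7.

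Most messenger RNAs are exported to the cytoplasm after splicing, whereas a class of long non-coding RNAs stays in the nucleus. Malat1 lies in nuclear speckles, the stores of splicing factors, and Neat1 is the scaffold of paraspeckles, a neighbouring nuclear body. Miat, also known as Gomafu, forms separate foci in the nuclei of neurons and binds splicing factors. Snhg11 and Gas5 are host genes whose introns carry small nucleolar RNAs, and spliced Gas5 is known to be degraded by nonsense-mediated decay and to bind the glucocorticoid receptor. Pisd-ps3 is a transcribed pseudogene of Pisd, the mitochondrial enzyme that makes phosphatidylethanolamine. Whole cells were lysed, so nuclear and cytoplasmic molecules cannot be told apart, and the name of the class was not checked by these counts.

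In GENCODE M21 (GRCm38/mm10), Malat1 spans 5795690 to 5802672 on the minus strand of chromosome 19, with 1 exon in its longest transcript of 6983 bases. Neat1 lies 22035 bases away on the same strand, at 5824708 to 5845478, with a long form of 20771 bases. Miat is on chromosome 5 at 112213228 to 112229395 (minus strand) with 7 exons in its longest transcript. Snhg11 is on chromosome 2 at 158375638 to 158386145 (plus strand) and holds 2 annotated small nucleolar RNAs. GENCODE types it as protein coding and RefSeq as a long non-coding RNA. Gas5 is on chromosome 1 at 161034422 to 161038539 (plus strand), with 25 annotated transcripts and 10 small nucleolar RNA entries inside it. Pisd-ps3 is a transcribed pseudogene in RefSeq and has no chromosome there. A gene on the opposite strand overlaps Malat1 (Gm37376), Miat (Gm26953) and Gas5 (Zbtb37). Whether reads were counted by strand is not stated, and Zbtb37 had 0 molecules in all cells.

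The cDNA was primed with oligo-dT, so the 3′ ends of these RNAs are shown first. The mature 3′ ends of Malat1 and of the long form of Neat1 are known to be cut by RNase P and to carry an encoded A-rich tract that folds into a triple helix, in place of a poly(A) tail. The stretches below are 100 bases from the GENCODE M21 transcripts, on the minus strand at chr19:5795982-5796081 for Malat1 and chr19:5824708-5824807 for Neat1. Capitals mark the 3 runs of at least 11 bases that the end of the long form of Neat1 shares with the end of Malat1, namely the T-rich TTTCTTTTCCTGA and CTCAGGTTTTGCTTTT and the A-rich AAAAAGCAAAA, with T standing for U.
Malat1: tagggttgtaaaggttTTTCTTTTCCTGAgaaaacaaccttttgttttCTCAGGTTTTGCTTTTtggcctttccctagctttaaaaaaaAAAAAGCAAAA
Neat1 long form: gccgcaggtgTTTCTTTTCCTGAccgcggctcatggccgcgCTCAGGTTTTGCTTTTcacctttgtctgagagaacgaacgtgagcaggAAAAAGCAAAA
Each of the 3 runs occurred once in each stretch. A search of the transcripts of 55450 annotated genes, on the transcript strand, found all 3 within 150 bases in 2 genes, Malat1 and Neat1. The runs were taken from these 2 genes, so finding both was fixed beforehand, and only exact matches were sought in the others. The longest run of A bases in any annotated transcript was 12 in Malat1, which ends inside the A-rich stretch above, against 7 in Neat1, 9 in Snhg11, 4 in Miat and 5 in Gas5.

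The annotated Malat1 transcript runs on for 292 bases past its A-rich stretch. The last 50 bases of 4 annotated ends are shown with the polyadenylation signals AATAAA or ATTAAA in capitals. They lie at chr19:5795690-5795739 (Malat1, minus strand), chr19:5842307-5842356 (Neat1 short form, minus strand), chr5:112213228-112213277 (Miat, minus strand) and chr1:161038490-161038539 (Gas5, plus strand).
Malat1: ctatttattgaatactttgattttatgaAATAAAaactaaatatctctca
Neat1 short form: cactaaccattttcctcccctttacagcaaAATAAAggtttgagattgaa
Miat: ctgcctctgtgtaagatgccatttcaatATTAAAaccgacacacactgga
Gas5: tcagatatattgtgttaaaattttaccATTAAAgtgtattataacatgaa
The last 50 bases of the long form of Neat1 hold neither signal. Of 141767 annotated mouse transcripts, 33.7% hold 1 of the 2 signals in their last 50 bases. A signal in this window is a match of letters and not a measured site. The Neat1 short form was picked by its AATAAA in this window, so its signal was fixed beforehand. Gas5 is shown by its longest transcript that reaches the end of the gene, and no end of Snhg11 is shown. The 4 ends are therefore not set against the 33.7%. Which form of Neat1 or which end of Malat1 was counted cannot be read from the table, which has 1 row per gene.

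The 9 cells held 1021 to 26466 gene molecules (median 9573), and 493 to 5542 genes with at least 1 molecule. The mitochondrial share, that is the molecules in rows starting with mt-, ran from 4.31% in cell 9 to 34.2% in cell 6. Spike-in molecules lay between 1962 and 2184 except for 614 in cell 9, the only cell whose column names lane 4, so lane and cell cannot be told apart for it. With the marker lists used here, at least 3 genes of another cell type reached 2 molecules in 4 cells. Cell 4 held 2507 molecules of blood markers and 118 of endothelial markers. Cell 5 held 442 of oligodendrocyte markers, cell 7 held 54 of endothelial markers, and cell 8 held 103 of ependymal and 29 of astrocyte markers. The neuron list gave 1 molecule in cell 1, 7 in cell 4, 9 in cell 6 and 16 to 241 in the others. In cell 7, 1 gene of the ependymal list, Tm4sf1, had 19 molecules and its other genes had 0. The microglial markers were at 0 throughout.

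Together the 6 RNAs had 3730 of the 91370 gene molecules, or 4.08%, and 89.5% of these were Malat1. From cell 1 to cell 9, their molecules numbered 144, 185, 641, 375, 980, 122, 764, 443 and 76. As a share of the gene molecules of the cell, they took 14.1% in cell 1 (interval 12.03 to 16.4) and 10.7% in cell 7 (9.96 to 11.4). Cell 3 followed at 5.97% (5.53 to 6.44). Cells 4, 5, 6 and 8 lay between 3.12% and 3.70%. Cell 2 had 1.93% (1.67 to 2.23) and cell 9 had 0.971% (0.766 to 1.21). The intervals of cells 1 and 7 lay above those of every other cell, and that of cell 9 lay below every other.

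**Figure D1:**
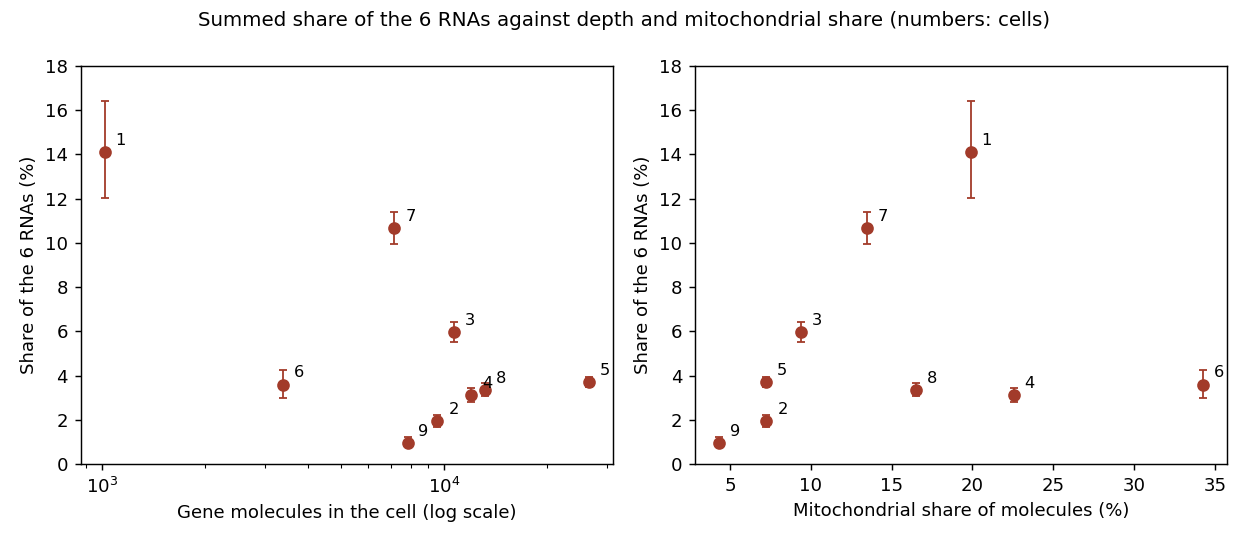
Share of gene molecules taken by the 6 RNAs in each of 9 cells, against the gene molecules of the cell (left, log scale) and against the mitochondrial share (right), with exact binomial 95% intervals. Cell 1 at 14.1% and cell 7 at 10.7% stand above the other cells, and cell 6, with the highest mitochondrial share of 34.2%, has 3.60%.

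Malat1, the speckle RNA, was detected in all 9 cells. From cell 1 to cell 9, its molecules numbered 119, 143, 549, 367, 912, 102, 696, 425 and 24. Cell 5, the deepest, had the most and cell 9 the fewest. Per 10000 gene molecules, cell 1 reached 1166 (966 to 1395) and cell 7 reached 972 (901 to 1047), whose intervals overlapped. Cell 3 had 512 (470 to 556). Cells 5, 8, 4 and 6 followed with 345, 323, 305 and 301, and each of these had an interval that overlapped the next. Cell 2 had 149 (126 to 176) and cell 9 had 30.7 (19.6 to 45.6). The level in cell 1 was 38.0 times that in cell 9 (24.4 to 61.7).

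The spike-ins give a scale that does not use the other RNAs of the cell. Per 1000 spike-in molecules, Malat1 reached 418 (391 to 446) in cell 5 and 336 (311 to 361) in cell 7, and 256 in cell 3. Cells 8, 4 and 2 had 195, 187 and 66.2, and cell 1 had 58.7 (48.6 to 70.3). Cells 6 and 9 had 50.6 and 39.1 (25.0 to 58.2). Cell 1 thus had the highest level of the 9 cells per gene molecule and the third lowest per spike-in molecule. The interval of cell 9 overlapped those of cells 1, 2 and 6 on the spike-in scale, and the highest cell was 10.7 times the lowest. Cell 9 was the lowest on both scales, but its spike-ins were themselves low, which raises its value on this scale.

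**Figure D2:**
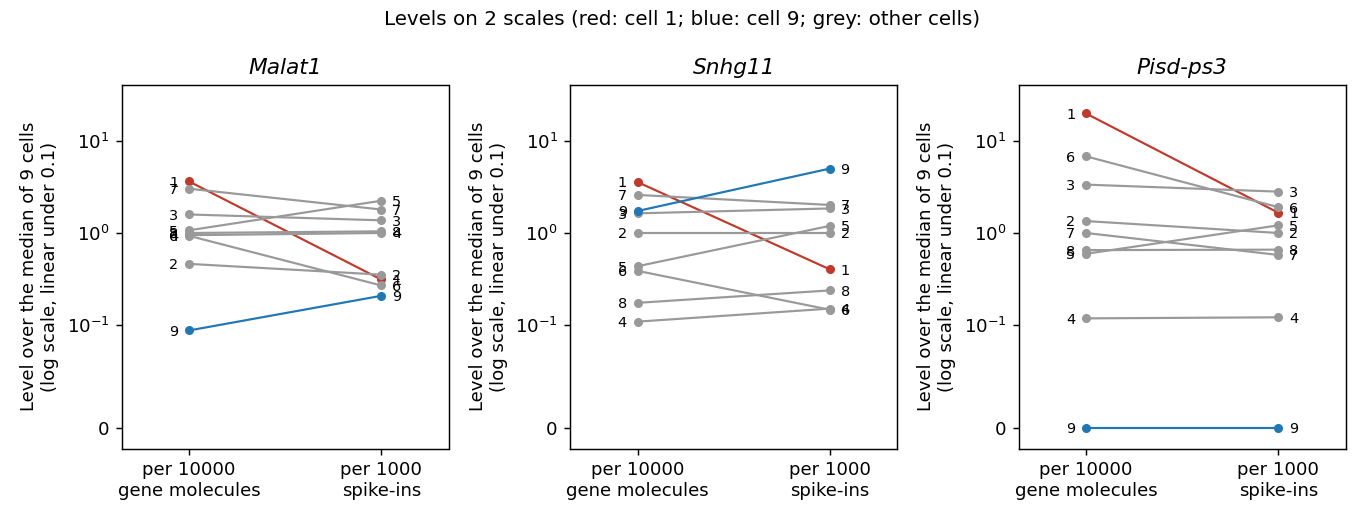
Levels of Malat1, Snhg11 and Pisd-ps3 in 9 cells per 10000 gene molecules and per 1000 spike-in molecules, each divided by its median over the cells (log scale, linear under 0.1). Cell 1 (red) falls from the top of all 3 plots to 58.7 Malat1, 5.43 Snhg11 and 6.91 Pisd-ps3 molecules per 1000 spike-ins, and cell 9 (blue) becomes the highest for Snhg11 at 66.8.

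Neat1, the paraspeckle scaffold encoded next to Malat1, had 1 molecule in all 9 cells, in cell 8. That cell held 425 Malat1 molecules and the ependymal and astrocyte markers. The limit set for a count of 0 is 3 molecules over the total of the cell, which allows up to 29.4 per 10000 in cell 1, 8.84 in cell 6 and 1.13 in cell 5. Between the neighbouring genes, 3337 molecules were therefore counted in one row and 1 in the other. The longest annotated transcripts differ in length, and no level per length was compared.

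Miat, the neuronal RNA of separate nuclear foci, had 9 molecules, split 5, 3 and 1 among cells 3, 7 and 2. The other 6 cells had none, including cell 5, where a count of 0 allows up to 1.13 per 10000. In cell 3 the level was 4.66 per 10000 (1.51 to 10.9), and in cell 7 it was 4.19 (0.864 to 12.2). Cell 7 also carried endothelial markers, and cells 2 and 3 were not among the cells with markers of another type.

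**Figure D3:**
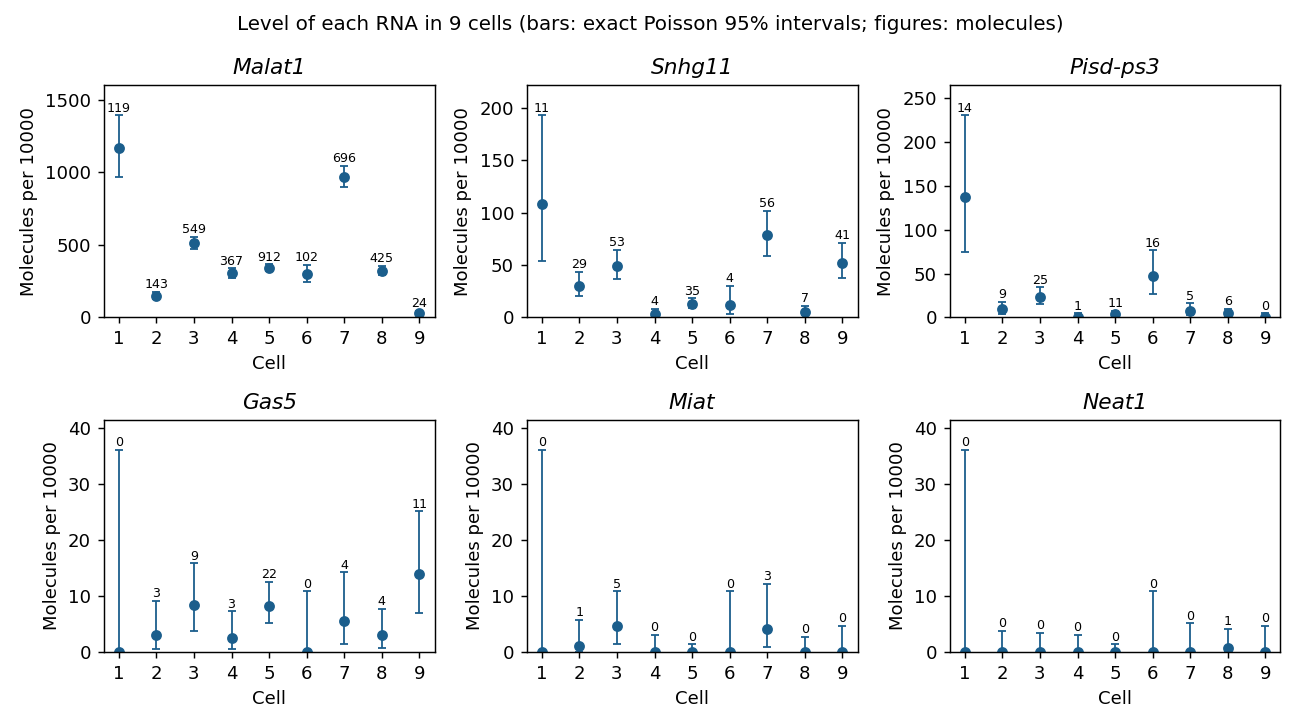
Molecules per 10000 gene molecules of each RNA in 9 cells, with exact Poisson 95% intervals and the number of molecules above each bar, and with a separate vertical axis for each RNA. Malat1 and Snhg11 were detected in all cells, Pisd-ps3 in 8, Gas5 in 7, Miat in 3 and Neat1 in 1.

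Snhg11, a host gene of small nucleolar RNAs, was detected in all 9 cells, with 240 molecules. Cells 1 to 9 held 11, 29, 53, 4, 35, 4, 56, 7 and 41 molecules in that order. Per 10000, cell 1 had 108 (53.8 to 193) and cell 7 had 78.2 (59.1 to 102). Cells 9 and 3 followed with 52.4 (37.6 to 71.1) and 49.4 (37.0 to 64.6). Cell 2 had 30.3 (20.3 to 43.5), cell 5 had 13.2 and cell 6 had 11.8 (3.21 to 30.2). Cells 8 and 4, with 5.31 (2.14 to 10.9) and 3.33 (0.906 to 8.52), were lowest. These 2 cells had 23 and 7 molecules of neuron markers and many of ependymal and of blood markers. The other 2 cells with markers of another type were higher. Cell 7, at 78.2, had 54 molecules of endothelial and 16 of neuron markers. Cell 5, at 13.2, had 442 of oligodendrocyte and 241 of neuron markers. The part of the markers in the Snhg11 level was not tested. Neighbours in this order overlapped in their intervals, except that cell 2 lay above cell 5 (9.21 to 18.4). Over the 9 cells, Snhg11 and the neuron marker share had a Spearman rho of 0.13, a weak relation, and the same value was -0.37 for Malat1 and -0.15 for Pisd-ps3. In cell 1 the neuron list had 1 molecule against 11 of Snhg11.

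The ratio of Snhg11 to Malat1 within a cell needs neither total nor spike-ins. Of the molecules of this pair, Snhg11 made up 63.1% in cell 9 (50.2 to 74.7). In the other 8 cells it made up 1.08% to 16.9%, the latter in cell 2 (11.6 to 23.3). The interval of cell 9 lay above those of all other cells. Cell 9 held 41 Snhg11 molecules, more than 6 of the other 8 cells, and the fewest Malat1 molecules of all. In cell 9, Gas5 was 31.4% of its pair with Malat1 (16.9 to 49.3). This value uses the same 24 Malat1 molecules, so it does not stand apart from the first. In the other cells Gas5 was at most 2.36%. Pisd-ps3 did not share this, with 0% of its pair with Malat1 in cell 9 (0 to 14.2). Gas5 was 21.2% of its pair with Snhg11 in cell 9 (11.1 to 34.7), against 0% to 42.9% in the other cells. Cell 9 alone came from lane 4, so a property of the cell and of its lane cannot be told apart.

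**Figure D4:**
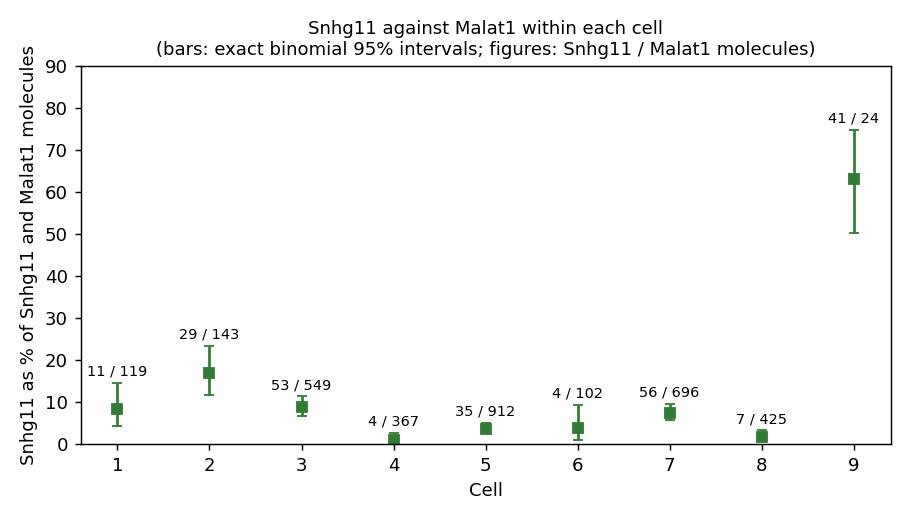
Snhg11 as a percentage of the Snhg11 and Malat1 molecules of each of 9 cells, with exact binomial 95% intervals and the molecules of both RNAs above each bar. Cell 9 stands at 63.1%, and the other cells lie between 1.08% and 16.9%.

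Pisd-ps3, the pseudogene transcript, was detected in 8 cells with 87 molecules. Cells 1 to 8 held 14, 9, 25, 1, 11, 16, 5 and 6, and cell 9 held none. Per 10000 the level was 137 in cell 1 (75.0 to 230.1) and 47.2 in cell 6 (27.0 to 76.6), the 2 shallowest cells. It was 23.3 in cell 3 (15.1 to 34.4) and 9.40 or less in the others. The count of 0 in cell 9 allows up to 3.83 per 10000. Per 1000 spike-in molecules the highest cell was cell 3 at 11.7 (7.55 to 17.2), followed by cell 6 at 7.93 and cell 1 at 6.91, whose intervals overlapped. The relatives had few molecules: Pisd had 9 in all, Pisd-ps1 had 4 and Pisd-ps2 had 2. These loci have similar sequences, so how reads were divided among them is uncertain.

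Gas5 was detected in 7 cells with 56 molecules. Cells 2 to 5 held 3, 9, 3 and 22, cells 7 to 9 held 4, 4 and 11, and cells 1 and 6 held none. Per 10000, cell 9 was highest at 14.1 (7.02 to 25.1), followed by cell 3 at 8.39 (3.83 to 15.9) and cell 5 at 8.31 (5.21 to 12.6). The other cells with Gas5 had 2.50 to 5.59. All neighbours in this order overlapped in their intervals, and the counts of 0 in cells 1 and 6 allow up to 29.4 and 8.84 per 10000. Nr3c1, the gene of the glucocorticoid receptor that Gas5 can bind, had 26 molecules, with 8 each in cells 3 and 5 and none in cells 1 and 2.

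Over the 9 cells, the summed share of the 6 RNAs had a Spearman rho of -0.32 with the gene molecules of the cell and of 0.30 with the mitochondrial share. Both are weak. Without the 2 cells farthest from the median depth (cells 1 and 5) the first was -0.21, and without the 2 farthest in mitochondrial share (cells 6 and 9) the second was 0.14. The points share a table and their totals, and shares of 1 total are tied to each other, so the shares were also taken over the molecules outside the mt- rows. Then the rho was -0.50 with depth and 0.62 with the mitochondrial share. On the spike-in scale it was 0.67 with depth and -0.45 with the mitochondrial share, so the sign turned for both. Spike-ins lay between 1962 and 2184 outside cell 9, so this scale stays close to raw molecules, which tend to rise with depth. A positive rho with depth is thus partly built into the scale, and no value over all genes was computed on it.

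The single RNAs differed in this respect. Per 10000 gene molecules, the rho with depth was -0.63 for Snhg11, -0.60 for Pisd-ps3, -0.13 for Malat1 and 0.38 for Gas5. The same relation was computed for 216 genes outside the mt- rows with at least 45 molecules and detection in at least 5 cells, which include these 4. The median over all 216 was 0.48, against -0.37 over the 4. A rho of -0.5 or less was reached by 3.24% of the genes, among them 2 of the 4 (Snhg11 and Pisd-ps3), and a rho of 0.5 or more by 48.1%, with none of the 4. Neat1 and Miat had too few molecules to enter. On the spike-in scale the rho with depth was 0.00 for Snhg11, -0.17 for Pisd-ps3, 0.60 for Malat1 and 0.51 for Gas5. These values have no counterpart over the 216 genes, and raw molecules tend to rise with depth.

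With the mitochondrial share, the rho was -0.89 for Gas5, -0.35 for Snhg11, 0.23 for Malat1 and 0.47 for Pisd-ps3. Their median was -0.06, against -0.52 over the 216 genes. A rho of -0.5 or less was reached by 51.9% of the genes, and by 1 of the 4, Gas5. A rho of 0.5 or more was reached by 0.463% and by none of the 4. With the mitochondrial transfer RNA rows, which held 1801 molecules in cell 4, left out of the mitochondrial share, Pisd-ps3 had a rho of 0.67. Malat1 then had 0.40, Snhg11 -0.083 and Gas5 -0.85. How many of the 216 genes reach 0.5 with that share was not computed, so the 0.463% does not cover it. Per spike-in molecule, the rho with the mitochondrial share was -0.83 for Snhg11, -0.79 for Gas5, -0.18 for Malat1 and 0.25 for Pisd-ps3, so the sign for Malat1 turned. Over the molecules outside the mt- rows, Malat1 reached 0.62, where 1.39% of the genes had 0.5 or more, and Gas5 had -0.84, where 44.0% had -0.5 or less. Without cells 6 and 9 the rho with the mitochondrial share was -0.79 for Gas5, and it was -0.07 for Pisd-ps3 and 0.14 for Malat1. Since the RNAs were chosen with these relations in view, nothing is read from their counts.

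**Figure D5:**
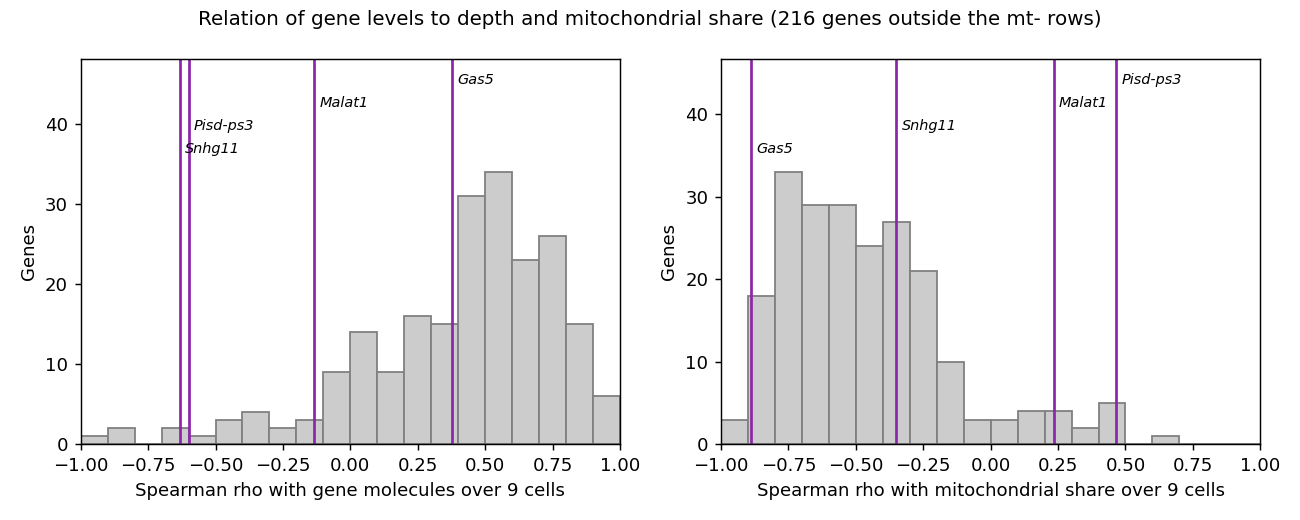
Number of genes by Spearman rho of their level per 10000 over 9 cells with the gene molecules of the cell (left) and with the mitochondrial share (right), for 216 genes outside the mt- rows, with Malat1, Snhg11, Pisd-ps3 and Gas5 as lines. Snhg11 and Pisd-ps3 lie at -0.63 and -0.60 on the left, where the median of all genes is 0.48, and Gas5 lies at -0.89 on the right, where the median is -0.52.

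For each RNA, the 3 genes of most similar pattern were taken by the Spearman rho of the level per 10000 over the 9 cells, among genes, mt- rows included, with at least 45 molecules and detection in at least 5 cells. For Gas5 they were Hspa5 (0.98), an endoplasmic reticulum chaperone, Gaa (0.95), the lysosomal alpha-glucosidase, and Resp18 (0.94), a protein of neuroendocrine granules. In cells 5, 3 and 9, which had the most Gas5, Hspa5 held 25, 13 and 10 molecules, and both were at 0 in cells 1 and 6. On the spike-in scale the 3 values were 0.97, 0.89 and 0.85. Without cells 1 and 6, the value for Hspa5 was 0.96. The level of Gas5 had a rho of 0.64 with the neuron marker share of the cell, and the part of that share in these likenesses was not tested. Gas5 also had a rho of 0.73 with the share of ribosomal-protein genes, and 0.43 without the cells farthest in that share, 1 and 6. Of the 185 genes tested that are not ribosomal, 62.2% had 0.5 or more there.

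Gas5 is known as a terminal oligopyrimidine gene, whose transcripts open with a C and a run of pyrimidines as those of ribosomal-protein genes do. The RefSeq window of one of its 2 start sites is shown for that reason, 80 bases on the plus strand at chr1:161035126-161035205 (GRCm38.p6), with CTTTC from the first transcribed base in capitals.
Gas5: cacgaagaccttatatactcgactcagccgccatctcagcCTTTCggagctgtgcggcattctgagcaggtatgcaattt
CTTTC stood at the first base, on the transcript strand, in 0.137% of the 32851 windows of the table and in 3 of 80 windows of ribosomal-protein genes (3.75%). Within 20 bases of the annotated start it occurred in 5.49% of all windows and in 26.25% of those of ribosomal-protein genes. Only these exact letters were searched, so other runs of pyrimidines are not counted. Of the 6 RNAs, 4 had a window in this table. The match is a description of the letters, chosen after the sequence was seen.

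For Snhg11 the most similar patterns were those of Hap1 (0.79), a huntingtin-associated protein abundant in hypothalamic neurons, Gria2 (0.75), an AMPA receptor subunit, and Oxt (0.62), the oxytocin gene. In cells 5, 9 and 2, Hap1 held 19, 17 and 15 molecules, but in cell 3, with 53 of Snhg11, it held 1. On the spike-in scale the rho was 0.73 for Hap1, 0.80 for Gria2 and 0.17 for Oxt. For Malat1 the highest values were lower, at 0.52 for mt-Atp6, a subunit of the mitochondrial ATP synthase, 0.50 for Sst, the somatostatin gene, and 0.48 for mt-Co1, a subunit of cytochrome oxidase. The value for mt-Atp6 was 0.15 on the spike-in scale, 0.31 without cell 9 and 0.71 without cells 1 and 6, and that for Sst was 0.77 on the spike-in scale, with 111 of its 148 molecules in cell 3.

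For Pisd-ps3 all 3 were mitochondrial messenger RNAs: mt-Nd1 (0.97), mt-Co3 (0.88) and mt-Co2 (0.83). Cells 1, 6 and 3 were the highest per 10000 for both Pisd-ps3 and mt-Nd1, with 14 and 11 molecules in cell 1 and 16 and 84 in cell 6, and cells 4 and 9 were the lowest for both. Without the 2 shallowest cells, 1 and 6, the rho with mt-Nd1 was 0.96. On the spike-in scale it was 0.12, so the likeness held per gene molecule and not per spike-in molecule. Within the pair, Pisd-ps3 made up 56.0% in cell 1 (34.9 to 75.6) and 18.8% or less in the other cells, so the molecules did not keep 1 ratio. No 20-base run, on either strand, was shared between annotated mitochondrial transcripts and the GENCODE transcripts of Pisd, Pisd-ps1, Pisd-ps2 or the other 5 RNAs. The sequence of Pisd-ps3 itself was not searched, so this says nothing of that RNA.

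With 9 and 1 molecules, Miat and Neat1 give an order of few cells. By the same rule Miat was nearest to Cd200 (0.79), Akr1a1 (0.76) and Rpl31-ps12 (0.71). Neat1 was nearest to Mt1, Cox8a and Ndufa2, each at 0.56, which were highest in cell 8, and this states only that order. Among the 6 RNAs themselves, the highest rho per 10000 was 0.47, between Malat1 and Pisd-ps3, and the lowest was -0.53, between Pisd-ps3 and Gas5. On the spike-in scale the highest was 0.78, between Snhg11 and Gas5, which had 0.27 per 10000.

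Other genes of the same kinds were read from lists fixed by name. Over the whole table, 59.9% of gene rows had no molecule, 33.4% were found in 1 to 4 cells and 6.76% in at least 5. Of 13 host genes of small nucleolar RNAs in the table, 3 reached at least 5 cells (Snhg11, Gas5 and Snhg8), 9 were found in fewer cells and 1 had no molecule. The hosts other than Snhg11 and Gas5 had 88 molecules in all, of which cells 4, 5 and 8, the 3 deepest, held 23, 25 and 19. These cells also carried markers of other cell types, as did cell 7, which held 1, and the part of depth or markers was not tested. Snhg8 alone held 13, 12 and 8 molecules in these cells, and 0 in cells 1, 3, 6 and 7. Cells 3 and 7, with the most Snhg11, held 8 and 1 molecules of the other hosts.

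Of 18 other long non-coding RNAs in the table, 5 reached at least 5 cells, 6 were found in fewer and 7 had no molecule. The 3 with most molecules were Meg3 (413), an imprinted RNA of neurons, 2900097C17Rik (110), the cytoplasmic RNA also called Norad, and Kcnq1ot1 (39), a nuclear RNA that silences an imprinted cluster. Cells 2, 7, 3 and 1 held 80, 75, 69 and 61 molecules of Meg3, and the others held 12 to 41. In cell 1, Malat1 and Meg3 held 119 and 61 of 1021 molecules. Kcnq1ot1 was at 2 to 9 molecules in 7 cells and at 0 in cells 6 and 9.

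The protein partners were also present at low counts. Of 12 paraspeckle protein genes, 4 reached at least 5 cells and 8 were found in fewer. Over the 9 cells, Hnrnpk had 30 molecules and Nono had 13. In cell 8, which held the Neat1 molecule, they had 2 and 0. Of 11 nuclear speckle genes in the table, 9 reached at least 5 cells, with 46 molecules of Son, the core speckle protein, 33 of Srsf5 and 32 of Srrm1. Of the 4 splicing partners of Miat, 1 (Srsf1, 12 molecules) reached at least 5 cells. Qk had 14 molecules, in cells 4, 7 and 8, and Sf1, the branch-point binding protein, had 8, in cells 3, 5 and 7. Of 8 genes of nonsense-mediated decay, 2 reached at least 5 cells (Smg1 with 14 molecules and Upf2 with 6), 5 were found in fewer and 1 had no molecule.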

How the data were processed

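The authors deposited 1 table of whole-number molecule counts, covering 24378 genes and 92 spike-in RNAs in 9 cells, per the file headers. Per the labels' protocols, tissue came from slices 300 µm thick, cDNA was primed with oligo-dT, amplified for 21 PCR cycles and cut with Tn5. The submitters' processing notes name mm10 and Bowtie. The aligner version, the collapsing of duplicates and the strand setting are not given in the sources used here. Columns were matched to cells by cell number, and 0 were left out.

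The 6 members and the lists were chosen with earlier results of these data known. Named genes were the members, the 3 genes of highest rho with each, and the 3 with most molecules in each list, of which 1 is not reported here. Levels are per 10000 gene molecules or per 1000 spike-in molecules. For symbols with several loci the largest row was taken. Intervals are exact Poisson or Clopper-Pearson at 95%, and a count of 0 was limited by 3 molecules. Depth was 1021 to 26466 gene molecules. No p-value was computed, since cells are not replicates. Dixon's critical value served only to pick cells that stand apart. Doublets were not called, and markers were summed per cell instead. The correlation step was tested on simulated data. Alternatives were other totals, thinning to 1021 molecules, detection limits and left-out cells. Spike-in scaling, the share without transfer RNAs, and leaving out cells 1 and 6 were chosen after seeing the data. Software was scipy 1.17.1, pandas 2.3.3, numpy 2.4.6 and matplotlib 3.10.9 under Python 3.11.15.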

Additional observations from a re-analysis of the deposited data

Results flagged for a closer look

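In 6 of 16 measures over the 9 cells, 1 cell at the top or bottom stood apart, in that its distance to the next cell, divided by the whole range, passed Dixon's 95% critical value. The rule flags about 1 in 20 groups of independent normal values, but these measures share cells and totals, and some are counts with zeros. The 6 flags are therefore not set against that rate. No mouse is named for the cells, so they are not known to be independent. Pisd-ps3 was at 137 per 10000 in cell 1, the shallowest cell. Neat1 was at 0.759 per 10000 in cell 8, from its only molecule, and an RNA found in 1 cell alone is always flagged. Snhg11 made up 63.1% of the Snhg11 and Malat1 molecules in cell 9, and its level there was 66.8 per 1000 spike-in molecules. Cell 9 also had 614 spike-in molecules, the lowest of all, so the second value rests in part on that low number and the first does not. Cell 5 had 26466 gene molecules.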

How the results depend on the processing

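Over the molecules outside the mt- rows, the summed share of the 6 RNAs was 17.6% in cell 1, and 6.59%, 4.03%, 3.99%, 5.47%, 12.3% and 4.03% in cells 3 to 8. With spike-ins in the total it was 4.72%, 1.58%, 4.98%, 2.68%, 3.42%, 2.26%, 8.27% and 2.88% in cells 1 to 8, so cell 7 and not cell 1 was highest. These lie outside the counting intervals by construction, since the total changed. The sum of loci gave the same shares. In 1 draw thinned to 1021 molecules, the interval of the draw itself held the full-depth share in every cell, but the drawn shares of cells 2 to 5 (2.45%, 5.29%, 3.53% and 4.11%) lay outside the narrower full-depth intervals. The rho of the share with depth, -0.32, was -0.50 outside the mt- rows, -0.017 with spike-ins in the total, -0.77 without Malat1 and 0.67 per spike-in molecule. Leaving out each cell gave -0.48 to -0.02, the latter without cell 1. The rho with the mitochondrial share, 0.30, was 0.62 outside the mt- rows, 0.51 as a Pearson correlation of log10 values, -0.083 without Malat1, 0.70 over the 5 cells left without cells 4, 5, 7 and 8, 0.50 without the transfer RNA rows and -0.45 per spike-in molecule. Leaving out each cell gave 0.00 (without cell 9) to 0.48. The cause of these shifts was not tested. Malat1 spanned 38.0-fold over the cells and 10.7-fold per spike-in molecule. Of the 54 pairs of RNA and cell, 37 had at least 1 molecule, 34 had at least 2 or 3, and 26 had at least 1 after thinning. Over the whole table, 59.9% of gene rows had no molecule in any cell. The share of such pairs over all genes was not computed, so nothing is read from these counts. No paired analysis was possible because there is 1 group. Depth limits cells 1 and 6 most, where a count of 0 allows 29.4 and 8.84 per 10000.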

Other observations

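Xist, the nuclear RNA of the inactive X chromosome, had 0 molecules in all 9 cells, while Tsix, annotated on the opposite strand across the same locus, had 17 molecules, all in cell 5. Without the strand setting of the counting, reads of the 2 genes cannot be told apart. Both were in the list of long non-coding RNAs fixed by name, and Tsix is singled out after its values were seen.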
